A study of Mus musculus with 4 samples.

Results

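The interneuron identity genes are 10 genes that were selected on earlier results of these data and on their known roles in GABAergic interneurons: Lhx6, Sox6, Sst, Npy, Vip, Pvalb, Erbb4, Adarb2, Zfp536 and Npas3. They were found by symbol and make up 10 of the 32286 features in the count tables. The 4 single-nucleus libraries were made from hemispheres of 14-day-old C57BL/6 mice that had been snap-frozen. The 2 WT libraries carried Slc17a6-Cre with Ago2 wt/wt, and the 2 libraries labelled cKO carried Slc17a6-Cre with Ago2 flox/flox, so all 4 carried the Cre driver. Slc17a6 encodes VGLUT2, a vesicular glutamate transporter, so the driver acts in neurons that use or have used VGLUT2 and is not aimed at GABAergic interneurons. Ago2 encodes an Argonaute, the protein through which miRNAs act on their targets. The labels do not say that the replicates are different animals, and p-values therefore measure only the spread among libraries, which may be technical.

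Most forebrain interneurons arise in the medial or the caudal ganglionic eminence (MGE and CGE) of the embryo and migrate into cortex, striatum and hippocampus. Lhx6 and Sox6 are transcription factors of the MGE lineage, which gives rise to the cells that make somatostatin (Sst) or parvalbumin (Pvalb). Vip cells come from the CGE, and Npy is made in cells of both origins. Sst, Npy and Vip are neuropeptides, and Pvalb is a calcium-binding protein of fast-spiking cells that comes on late in postnatal life. Erbb4 is the neuregulin receptor of interneurons, and Adarb2, a member of the adenosine deaminase family without known editing activity, is widely used to mark the CGE lineage. Npas3 and Zfp536 are transcription regulators that are also active outside interneurons.

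The genes differ greatly in length, which matters for nuclear RNA because unspliced transcripts can be counted. In GRCm38 (GENCODE vM21 annotation), Sst (chr16:23889573-23890958) spans 1386 bases, whereas Erbb4 (chr1:68032186-69108059) spans 1075874 bases. The other short genes were Npy (chr6:49822710-49829507), Vip (chr10:5639218-5647617), Pvalb (chr15:78191114-78206400) and Lhx6 (chr2:36081953-36105408). The other long genes were Npas3 (chr12:53248677-54072175), Sox6 (chr7:115470872-116038796), Adarb2 (chr13:8202866-8768747) and Zfp536 (chr7:37472135-37773641). All 10 are protein-coding. Whether the submitters counted intronic reads is not given in the sources used here, so levels are compared between classes and libraries for 1 gene and never between genes. Sox6, Npas3 and Zfp536 overlap antisense genes that are also in the tables, and Erbb4 holds 1 annotated gene on its own strand.

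The promoter windows of Sst and Vip are shown for the cyclic AMP response element, of which Sst is a textbook case. Of the 18 RefSeq start sites of the 10 genes, that of Sst alone had the full palindrome TGACGTCA within 250 bases before to 50 after the start, which 1.79% of all 32851 RefSeq promoters have. The shorter form TGACGTNN, searched on both strands and overlapping the first, was present in 7.49% of promoters, among them those of Sst, Vip and Sox6 and not that of Npy. The windows below (RefSeq, GRCm38.p6, 5′ to 3′ on the strand of the gene) have the match in capitals. The Sst window lies at chr16:23890874-23890903 on the minus strand, with the element 48 to 41 bases before the RefSeq start. In the GENCODE annotation Sst starts further upstream, at 23890958, so there the window lies inside the gene. The Vip window lies at chr10:5639128-5639157 on the plus strand, with its match 79 to 72 bases before the start.
Sst: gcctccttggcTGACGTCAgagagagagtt
Vip: gatcactactgTGACGTCTttcggggagcc
A match is a description of the letters only. No occupancy or activity of these elements was measured.

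The libraries held 10845009 to 29317266 UMIs, WT replicate 2 being the deepest, and 15450 of 17802 barcodes were kept. The share of barcodes lost to the mitochondrial filter was 17.8% and 8.78% (WT) and 5.64% and 6.14% (cKO), and 37 barcodes occurred in more than 1 library. Over all kept nuclei, WT libraries had Ago2 at 74.2 and 82.4 CPM (UMIs of a gene scaled to the usual total per library or class) and cKO libraries at 88.5 and 91.8 CPM. Which part of Ago2 the floxed alleles remove is not given in the sources used here, so these 3′ counts do not check the genotype. The Cre entry of the tables had 0 UMIs in every library. Ependymal nuclei made up 0.0309% and 0.0343% of WT nuclei and 0.310% and 0.442% of cKO nuclei, and this share passed the edgeR test (adjusted p 0.00391).

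The interneurons were found by clustering without the 10 genes, so that their own counts did not define the classes. Genes that overlap them, such as Gm45025 at Sox6 and Gm16076 at Erbb4, were not left out. One sub-cluster of GABAergic nuclei had 8 detected markers of MGE interneurons (among a list with Nxph1, Satb1, Maf and Kcnc2) and held 188 nuclei. Another had 7 detected markers of CGE interneurons (a list with Prox1, Nr2f2, Htr3a and Npas1) and held 101 nuclei. They are MGE-like and CGE-like by these markers and are called MGE and CGE interneurons from here on. Together they are called interneurons, and they are part of the 593 to 1095 GABAergic nuclei per library, which also include spiny projection neurons, olfactory bulb and cerebellar GABAergic neurons, neuroblasts and unnamed GABAergic nuclei. The label of the gene group holds for these classes in part: Lhx6, Sst, Vip, Npy, Erbb4 and Adarb2 had their highest mean in an interneuron class, and Sox6, Zfp536, Npas3 and Pvalb did not. Orders of levels cover the named classes with at least 10 nuclei in every library, which leaves out ependymal, mural and midbrain and hindbrain GABAergic nuclei. They also leave out the unnamed nuclei that did not pass the rule for GABAergic nuclei.

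**Figure D1:**
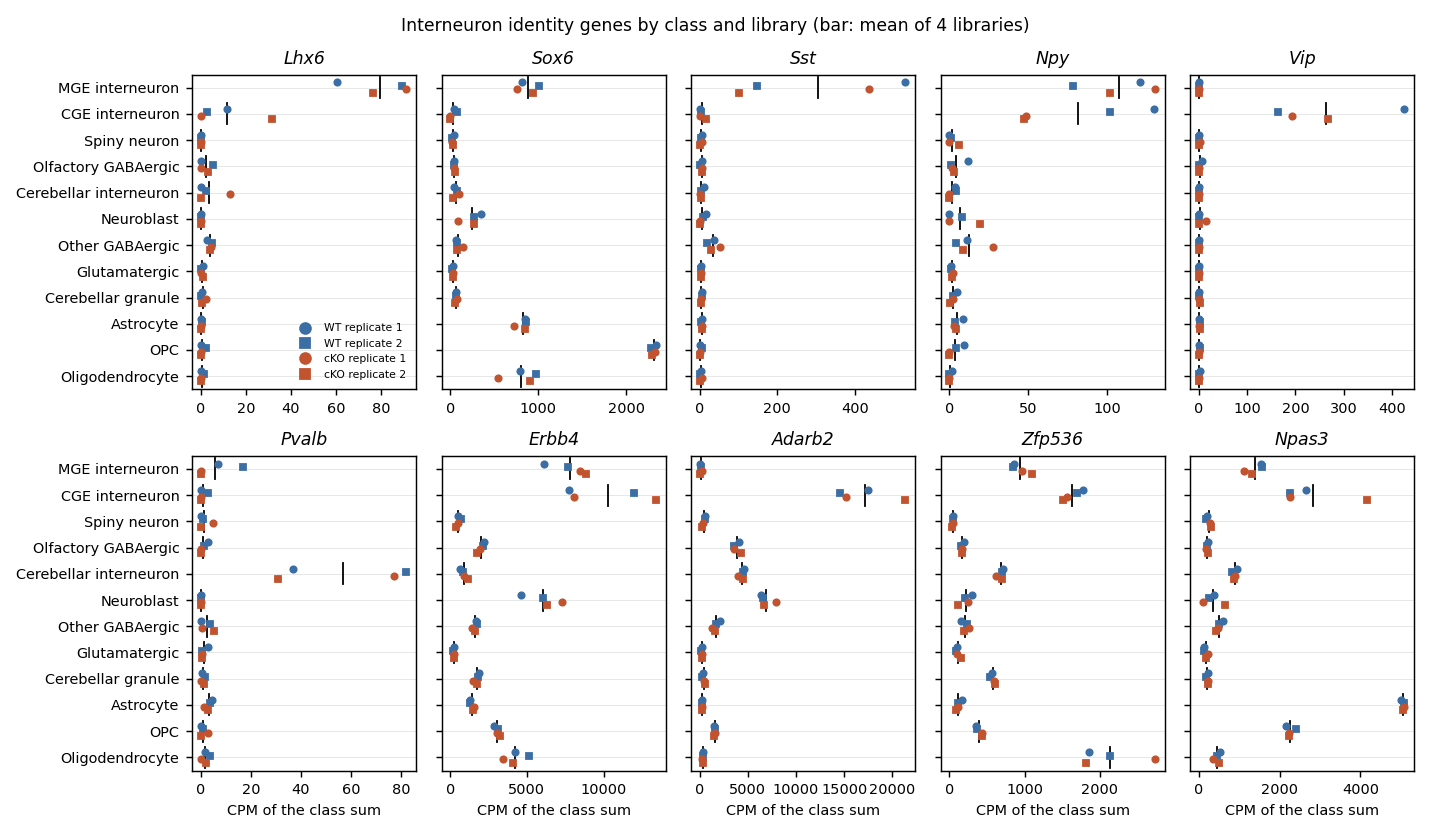
Level of each gene (x axis, CPM of the summed counts of a class, linear and on its own scale per gene) in 12 classes (y axis); points are the 4 libraries and the vertical bar is their mean. Lhx6, Sst, Npy and Vip are low outside interneurons, whereas Sox6 is highest in OPC (mean 2308 CPM), Npas3 in astrocytes (mean 5057 CPM) and Pvalb in cerebellar interneurons (mean 56.7 CPM).

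The transcription factors of the MGE lineage differed in how far they were restricted to it. Lhx6 was at 60.4 and 89.4 CPM in the MGE interneurons of the WT libraries and at 91.1 and 76.5 CPM in those of the cKO libraries. The next class, CGE interneurons, reached at most 31.4 CPM, and the ranges over the 4 libraries did not overlap. Only 173 Lhx6 UMIs were found in all kept nuclei, of which 56.1% lay in interneurons. Sox6 had 14749 UMIs, of which 7.23% lay in interneurons. Its level in MGE interneurons was 819 and 1011 CPM in WT and 761 and 943 CPM in cKO libraries, which overlapped the levels of astrocytes and oligodendrocytes. OPC, the oligodendrocyte precursors in which Sox6 is known to act, stood above all other classes at 2284 to 2332 CPM.

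The peptides each had their highest level in an interneuron class. Sst was at 530 and 148 CPM in the MGE interneurons of the WT libraries and at 436 and 102 CPM in those of the cKO libraries. Both replicates numbered 1 were high and both numbered 2 were low, so the spread within a genotype was larger than the difference between genotypes. Among the ordered classes unnamed GABAergic nuclei came next for Sst, at 19.3 to 51.2 CPM. The 27 midbrain and hindbrain GABAergic nuclei, outside that order, had 0 to 75.2 CPM. Npy was found in MGE interneurons (78.2 to 130 CPM) and CGE interneurons (47.1 to 130 CPM) at overlapping levels. Vip was found in CGE interneurons at 425 and 164 CPM in WT and at 194 and 267 CPM in cKO libraries, and 0 of 188 MGE interneurons had a Vip UMI. Over the pooled libraries this allows up to 1.94% of nuclei with a UMI (exact 95% interval, counting error only), which does not bound the share that expresses Vip. Of the Vip UMIs in GABAergic nuclei, 93.2% lay in CGE interneurons.

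Pvalb was sparse in forebrain interneurons at this age and depth. Its highest mean was in cerebellar interneurons, with 36.7 and 82.1 CPM in WT and 77.1 and 30.9 CPM in cKO libraries. Unnamed nuclei that did not pass the rule for GABAergic nuclei, which include a cluster of 119 nuclei with 6 Purkinje markers, overlapped cerebellar interneurons. They had Pvalb at 45.8 and 30.1 CPM in WT and 10.9 and 4.62 CPM in cKO libraries. These 1775 nuclei mix several clusters and their levels were not fitted, so no genotype difference is read. In MGE interneurons Pvalb was at 6.71 and 16.8 CPM in WT libraries and at 0 in both cKO libraries. Of its 13 UMIs there, 12 came from WT replicate 2, the deepest library, and without it the level of WT replicate 1 lay below the floor of 12.9 CPM that 3 UMIs over the cKO nuclei would give, so no difference is read. Cerebellar interneurons overlapped choroid plexus nuclei (0 to 46.8 CPM), a class of few nuclei.

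The receptor and the other long genes were abundant. Erbb4 had UMIs in 96.8% of MGE interneurons and 100% of CGE interneurons. It was at 6127 and 7689 CPM in WT and 8486 and 8885 CPM in cKO libraries in MGE interneurons, and neuroblasts (4645 to 7292 CPM) overlapped them. Adarb2 separated the interneuron classes from each other. It was at 17511 and 14588 CPM in WT and 15236 and 21349 CPM in cKO libraries in CGE interneurons, against 38.2 to 221 CPM in MGE interneurons. Neuroblasts (mean 6887 CPM), cerebellar interneurons (mean 4393 CPM) and olfactory GABAergic neurons (mean 3871 CPM) also had Adarb2, and only 24.2% of its GABAergic UMIs lay in interneurons. Zfp536 was highest in oligodendrocytes (1814 to 2731 CPM), then CGE interneurons (1506 to 1782 CPM) and MGE interneurons (852 to 1096 CPM), and none of these ranges overlapped. Npas3 was highest in astrocytes (5002 to 5089 CPM). Among the ordered classes CGE interneurons followed at 2257 to 4173 CPM, overlapping OPC, and MGE interneurons were lower at 1113 to 1563 CPM. The 27 ependymal nuclei had 2088 to 4260 CPM of Npas3.

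Single nuclei showed how the genes combine. In MGE interneurons, 61 of 188 nuclei (32.4%, exact 95% interval 25.8 to 39.6) had an Lhx6 UMI and 154 (81.9%) a Sox6 UMI. Of the 66 nuclei with an Sst UMI, 36.4% also had an Npy UMI, against 8.20% of the nuclei without one. In CGE interneurons the peptides seldom met. Npy and Vip UMIs occurred together in 2 of the 101 nuclei, while 22 had Npy and 30 had Vip. All 30 nuclei with a Vip UMI also had Adarb2, but so did 98.6% of the CGE interneurons without one, so this shows no pairing. These counts pool the libraries and are descriptions.

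A finer partition, made separately and so not strictly nested in the classes, gave 4 sub-clusters of interest. In an MGE-like one of 76 nuclei, 77.6% had an Sst UMI, Sst was at 498 CPM, Npas3 at 2450 CPM and Erbb4 at 2336 CPM. The other MGE-like one, of 115 nuclei, had Sst at 26.6 CPM, Npas3 at 659 CPM and Erbb4 at 12080 CPM, and 9 of its nuclei had a Pvalb UMI against 0 in the first. A CGE-like sub-cluster of 56 nuclei had Vip at 411 CPM, Adarb2 at 20700 CPM and Npas3 at 4236 CPM. One of 44 nuclei, which had 4 of the CGE markers but did not pass the rule for a name, had Npy at 180 CPM and no Vip UMI, with Npas3 at 649 CPM and Zfp536 at 2298 CPM. The Sst sub-cluster held 14 and 41 nuclei in the WT and 15 and 6 in the cKO libraries. The Erbb4-rich sub-cluster held 21 and 54 nuclei in the WT and 28 and 12 in the cKO libraries.

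Across 44 clusters and sub-clusters of at least 50 nuclei, the genes whose pooled levels were most like each member were listed from 13002 genes by Pearson's r of log2(CPM + 1). These are descriptions over units that share libraries, and some sub-clusters lie within clusters. The closest to Adarb2 was Gad1, the GABA-synthesizing enzyme (r = 0.810). The closest to Sox6 was Gm45025 (r = 0.849), which overlaps Sox6 on the other strand, so their reads may not be separable. Npas3 and Sox6 shared Gm16499 among their closest genes (r = 0.778 and 0.754). The closest to Pvalb were the potassium channel gene Kcna2 (r = 0.667) and the neurofilament gene Nefh (r = 0.652), and the closest to Vip was the guidance ligand Sema3c (r = 0.528). For Lhx6 the list was led by Rnf144b (r = 0.625) and the fast potassium channel Kcnc2 (r = 0.619), the latter a marker used to name the MGE class. The leading genes were Fam120b for Sst (r = 0.614), Gm35040 for Npy (r = 0.586), Sox2ot for Erbb4 (r = 0.639) and 2900052L18Rik for Zfp536 (r = 0.649).

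Over all GABAergic nuclei pooled, each of the 10 genes had a negative log2 change in cKO relative to WT, and none passed the test. This contrast was in view when the genes were selected, so the following values are descriptions. The changes ranged from -0.10 for Sst to -1.21 for Vip, with a median of -0.35, beside a median of -0.01 over all 12930 genes tested. By edgeR's quasi-likelihood test 0 of 10 members had an adjusted p under 0.05 against a background of 0%, with 524 of all genes at an unadjusted p under 0.05, and DESeq2 called 4 genes. Libraries of the genotypes did not overlap for 5 of 10 members, all lower in cKO, against 31.8% of all genes tested.

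Vip had the largest of these changes. It was at 15.7 and 9.48 CPM in the GABAergic nuclei of WT libraries and at 4.89 and 5.59 CPM in those of cKO libraries. The cKO libraries lay below the WT libraries, with a log2 change of -1.21 ± 0.36 (SE), and the adjusted p by edgeR was 0.999. Npas3 was at 643 and 646 CPM in WT and at 491 and 541 CPM in cKO libraries. Its log2 change was -0.34 ± 0.11 (SE), with an adjusted p of 0.999 by edgeR. Adarb2 was at 2969 and 2564 CPM in WT and 2147 and 2346 CPM in cKO libraries, Zfp536 at 322 and 378 CPM against 303 and 263 CPM, and Erbb4 at 2009 and 2843 CPM against 1978 and 1873 CPM. For the MGE genes the libraries overlapped. Lhx6 was at 5.22 and 13.2 CPM in WT and 7.83 and 5.26 CPM in cKO libraries, and Sox6 at 108 and 169 CPM against 135 and 84.5 CPM. Leaving out WT replicate 2 turned the change of Lhx6 to 0.33 and that of Sox6 to 0.02, and left that of Erbb4 at -0.06. In bulk sums such as these, fewer cells of a type and less RNA per cell cannot be told apart, and the comparisons that follow therefore take nuclei and levels one at a time.

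Interneuron nuclei were fewer on average in cKO libraries, but the difference did not pass the test. The WT libraries held 33 and 95 MGE interneurons, or 1.02% (exact 95% interval 0.703 to 1.43) and 1.63% (1.32 to 1.99) of kept nuclei. The cKO libraries held 42 and 18, or 1.30% (0.941 to 1.76) and 0.568% (0.337 to 0.896). The replicate 1 libraries were close to each other and lay between the replicate 2 libraries, so the genotypes overlapped. The log2 change of the share was -0.53 ± 0.39 (SE), with an adjusted p of 0.633 by edgeR over the classes. CGE interneurons made up 0.649% and 0.807% of WT nuclei and 0.590% and 0.442% of cKO nuclei, a log2 change of -0.52 ± 0.33 (SE) with an adjusted p of 0.615. For both together the log2 change was -0.52 ± 0.34 (SE), with an adjusted p by edgeR of 0.608. Without cKO replicate 2 it was -0.14, and without WT replicate 2 it was -0.20, so these libraries set its size.

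**Figure D2:**
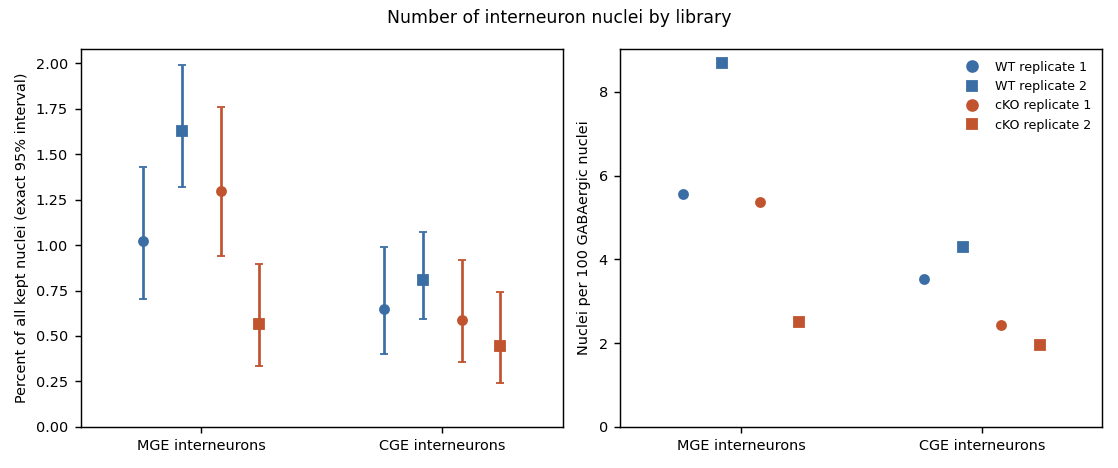
Share of MGE and CGE interneurons by library, as percent of all kept nuclei with exact 95% binomial intervals (left) and per 100 GABAergic nuclei (right); points are libraries. WT replicate 2 is highest and cKO replicate 2 lowest in each column, and the replicate 1 libraries lie between them.

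The call depended on the fit, in which the total and the set of classes changed together. Per 100 GABAergic nuclei there were 9.11 and 13 interneurons in WT and 7.78 and 4.45 in cKO libraries. With that total the log2 change was -0.87 and the adjusted p by edgeR was 0.034. That fit held the GABAergic classes only, so its dispersion and adjustment also differed from those of the main fit. Unnamed GABAergic nuclei moved the other way, from 6.92% and 6.51% of kept nuclei in WT to 9.62% and 10.7% in cKO libraries (adjusted p by edgeR 0.194), and their part in the ratio was not tested. Per 100 glutamatergic forebrain nuclei there were 13.6 and 17.4 interneurons in WT and 14.6 and 9.44 in cKO libraries, which overlapped.

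Within interneurons, the levels of the members showed no common direction. Of the 9 members with enough counts, 5 had a positive and 4 a negative log2 change, with a median of 0.01, beside 0.01 for all 3960 genes tested. None passed the test in edgeR (background 0%, with 161 genes at an unadjusted p under 0.05 and 0 calls by DESeq2). The libraries of the genotypes overlapped for all 9, whereas they did not overlap for 32.4% of all genes tested. Lhx6 was at 42.8 and 60.8 CPM in WT and at 64.9 and 56.3 CPM in cKO interneurons, a log2 change of 0.10 ± 0.43 (SE). Sox6 had a log2 change of -0.28 ± 0.24 (SE), from 539 and 700 CPM in WT to 543 and 520 CPM in cKO libraries. Vip, at 154 and 54.2 CPM against 55.6 and 120 CPM, had a change of -0.12 ± 0.50 (SE), and Sst one of -0.03 ± 0.53 (SE). With standard errors of this size, equal levels are not shown.

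The change of each tested member was closer to 0 or of the other sign without the interneurons. In GABAergic nuclei outside the interneuron classes (539 to 953 per library), Lhx6, Sox6, Sst and Npy had positive changes of 0.11, 0.39, 0.58 and 1.15, and 5 other tested members had negative ones. The median of the 9 tested was -0.03. None passed the test by edgeR, against a background of 0.0156%. Erbb4 and Adarb2 still had both cKO libraries below both WT libraries, 2 of 9 against 32.0% of all genes tested. This comparison was added after the data had been seen.

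**Figure D3:**
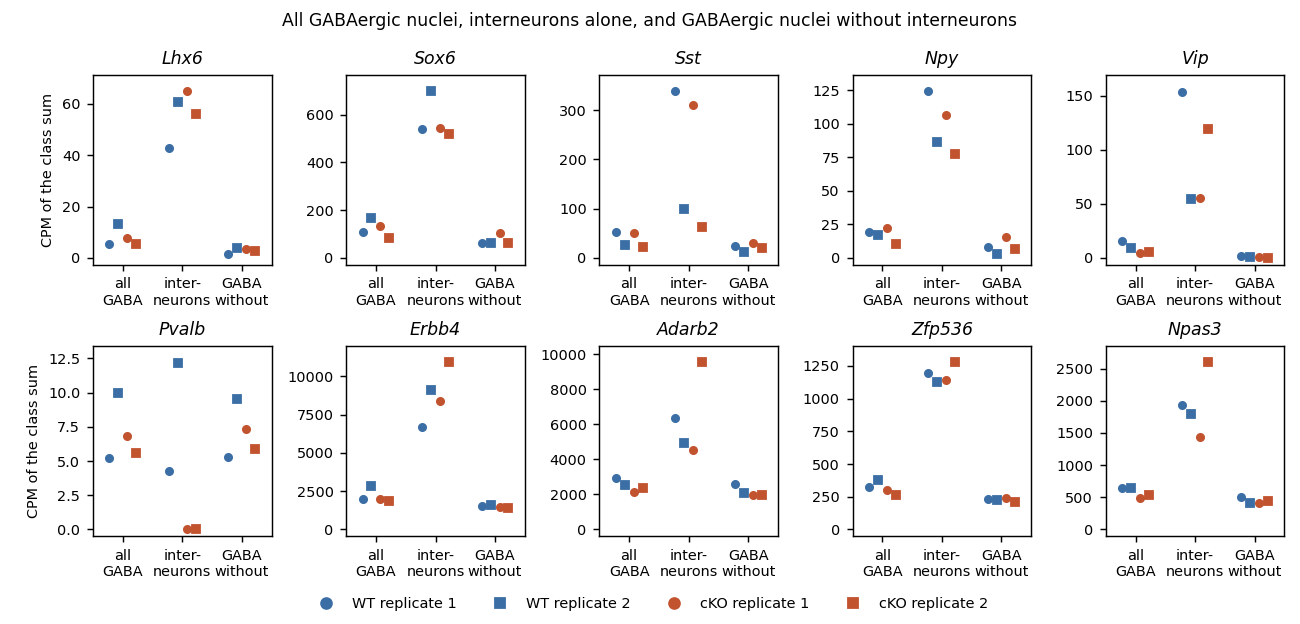
Level of each gene (y axis, CPM of the summed counts) in all GABAergic nuclei, in interneurons alone and in GABAergic nuclei without interneurons, for the 4 libraries. In the pool 5 genes (Vip, Erbb4, Adarb2, Zfp536 and Npas3) have both cKO libraries below both WT libraries; among interneurons only Pvalb, with 0 UMIs in the cKO libraries, does.

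The pooled change was split into the part that follows the mix of sub-clusters and the part that follows levels within them. The mix part keeps the level of each of 15 sub-clusters at its mean over the libraries and lets their shares of UMIs vary, and the level part does the reverse. No test applies to either. The mix part was negative for all 10 members and larger in size than the level part for 9, with medians of -0.39 and 0.00. Over the 10502 genes with at least 100 UMIs in GABAergic nuclei, the mix part was the larger for 13.1%. The members were chosen for their roles in interneurons and with the pooled GABAergic contrast in view. Negative and large mix parts follow in part from that choice, so the share over all genes is no independent yardstick. All 10 mix parts also use the same sub-cluster shares of the libraries and are not separate observations.

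For Lhx6 the mix part was -0.69 and the level part 0.26, of a total of -0.49. With levels held, the expected Lhx6 levels were 7.80 and 11.8 CPM in WT and 6.97 and 5.17 CPM in cKO libraries. These values restate the sub-cluster shares of each library. With the mix held, they were 5.37 and 9.09 CPM in WT and 9.19 and 8.09 CPM in cKO libraries. For Vip both parts were negative, at -1 for the mix and -0.40 for the level. Erbb4 had a mix part of -0.39 and a level part of 0.08, Sox6 -0.41 and 0.15, Npy -0.46 and 0.24, Sst -0.38 and 0.00, and Zfp536 -0.30 and 0.00. Adarb2 (-0.21 and -0.08) and Npas3 (-0.23 and -0.08) had negative values for both. Pvalb was the exception, with a mix part of -0.05 and a level part of -0.29. Without WT replicate 2 the mix part was the larger for 4 members only, so the count rests on that library.

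**Figure D4:**
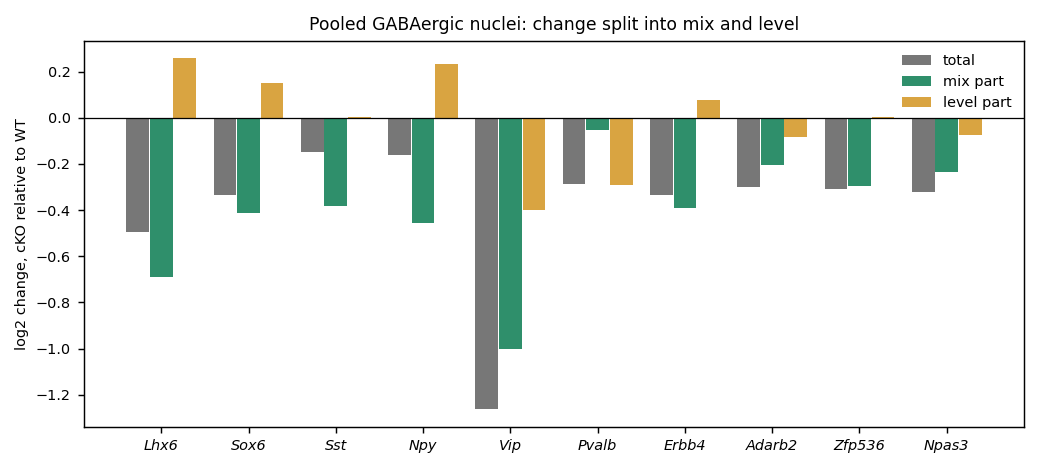
Log2 change of cKO relative to WT over all GABAergic nuclei (y axis) for each gene: total, mix part and level part. Bars start at 0 and carry no error since no test applies; the mix part is below 0 for all 10 genes and the level part lies between -0.40 (Vip) and 0.26 (Lhx6).

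Depth differed between the libraries and bears on shares of nuclei with a UMI. The median interneuron had 4407 and 7248 UMIs in WT and 2961 and 4533 UMIs in cKO libraries. Without thinning, 59.3% and 65.5% of WT interneurons and 42.6% and 50% of cKO interneurons had a Sox6 UMI. After each nucleus was thinned to 1000 UMIs, which left out 1 interneuron in each cKO library, the shares were 29.6% and 31% in WT and 30% and 32.3% in cKO libraries. The exact permutation p, two-sided, was 0.667, and the smallest that 2 against 2 libraries can give is 0.333. At 2000 UMIs, where 15 of the 61 nuclei of cKO replicate 1 were too shallow, they were 49% and 50.4% in WT and 41.3% and 43.3% in cKO libraries. Each class was thinned in its own random draw, and draws at the same depth differed. Drawn apart at 1000 UMIs, MGE interneurons had Sox6 shares of 48.5% and 56.8% in WT and 34.1% and 52.9% in cKO libraries. CGE interneurons had 4.76% and 8.51% in WT and 0 in both cKO libraries. No direction for Sox6 is therefore read from the thinned shares. Npy had UMIs in 20.4% and 24.6% of WT and 8.20% and 15.6% of cKO interneurons before thinning, and in 5.56% and 4.93% against 3.33% and 3.23% after it. In oligodendrocytes, used as background (median 3099 UMIs, against 5117 in interneurons), the shares at 1000 UMIs with an Sst or an Npy UMI were 0 in all libraries, and those with an Lhx6 or a Vip UMI were at most 0.277%. At 2000 UMIs the share with an Sst UMI reached 1.14% in cKO replicate 1. For Pvalb the oligodendrocyte shares at 1000 UMIs were 0, 0.831, 0 and 0.667% in the order WT 1 and 2, cKO 1 and 2, and those of interneurons 0, 0.704, 0 and 0%. At 2000 UMIs in WT replicate 2, the Pvalb share was 0.719% of interneurons and, in another draw, 5.38% of MGE interneurons. It was 0.58% of oligodendrocytes there. Without thinning it was 6.34% of interneurons and 1.39% of oligodendrocytes in that library. These counts are too few to place the interneuron share of Pvalb against background. Sox6, Erbb4, Zfp536, Npas3 and Adarb2 had UMIs in 21.9% or more of oligodendrocytes in every library at 1000 UMIs, so no such background is given for them.

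Taken alone, MGE and CGE interneurons had too few nuclei in cKO libraries (18 and 14 in replicate 2) for the minimum of 20 per library, and each was fitted with a minimum of 10 chosen after the data had been seen. In MGE interneurons 8 members were tested and 0 passed the edgeR test (background 0%). Erbb4 and Zfp536 had cKO libraries above and Npas3 cKO libraries below the WT libraries, 3 of 8 against 33.8% of all genes tested. In CGE interneurons 5 were tested and 0 passed (background 0%). Zfp536 was at 1782 and 1691 CPM in WT and 1564 and 1506 CPM in cKO libraries, the 1 of 5 that did not overlap, against 32.4% of all genes tested. Some members lay under the filter there. Sox6 in CGE interneurons had 29 UMIs in 13 of 68 WT nuclei and 0 UMIs in 33 cKO nuclei. Its level over the pooled WT nuclei was 2.77-fold above the floor of 23.9 CPM that 3 UMIs over the cKO nuclei would give. Of the 29 UMIs, 25 came from WT replicate 2, the deepest library, and 4 from WT replicate 1, so no difference in Sox6 is read. Its WT levels of 47.2 and 70.6 CPM there were close to those of olfactory GABAergic neurons (43.1 to 55.7 CPM) and cerebellar granule neurons (51.5 to 74.0 CPM), and the part of RNA from other cells was not tested. Npy in CGE interneurons was at 130 and 102 CPM in WT and at 48.4 and 47.1 CPM in cKO libraries. These levels rest on 11 and 36 UMIs in WT and 3 and 3 in cKO libraries, under the filter. In the finer sub-cluster of 44 nuclei Npy was at 350 and 159 CPM in WT and 120 and 193 CPM in cKO libraries. The genotypes overlapped there, so no difference in Npy is read.

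Glutamatergic forebrain nuclei had low levels of the members. The 5 members tested there all had positive changes, and 0 passed the edgeR test (background 0.0270%). The genotypes did not overlap for 4 of 5, against 33.8% of all genes. Npas3 was at 138.1 and 138.5 CPM in WT and 239 and 187 CPM in cKO libraries, and Adarb2 at 196 and 167 CPM against 238 and 239 CPM. The genotype effect in GABAergic nuclei minus that in glutamatergic nuclei passed the interaction test by edgeR for 2 members, Npas3 (-0.90 ± 0.14, SE, adjusted p 0.0187) and Adarb2 (-0.66 ± 0.12, SE, adjusted p 0.0462), against 0.0602% of all 13296 genes. This contrast was also in view when the genes were selected. Without the interneurons the adjusted p was 0.166 for Npas3 and 0.132 for Adarb2. Without WT replicate 2 it was 0.686 and 0.777, and without WT replicate 1 it was 0.0596 and 0.359.

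Markers of other cell types had UMIs in these nuclei. Whether they came from other cells, from doublets left in or from the neurons themselves was not tested. The 10 markers of oligodendrocytes, all with UMIs, summed to 493 and 365 CPM in the GABAergic nuclei of WT and 200 and 200 CPM in those of cKO libraries, against 14300 to 19600 CPM in oligodendrocytes themselves. In interneurons they summed to 505 and 250 CPM in WT and 158 and 134 CPM in cKO libraries. Zfp536, Erbb4 and Sox6 also had high levels in oligodendrocytes, and the part of any oligodendrocyte RNA in their changes was not tested. The 11 astrocyte markers, all with UMIs, summed to 737 and 619 CPM in the glutamatergic nuclei of WT and 656 and 580 CPM in those of cKO libraries, and their part in the values of Npas3 was not tested.

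In the other classes 0 members passed the edgeR test, and the genotypes did not overlap for a few members each. This held for 3 of 5 members tested in spiny neurons (34.0% of all genes), 2 of 5 in olfactory GABAergic neurons (32.3%), 3 of 6 in cerebellar interneurons (35.0%) and 3 of 5 in neuroblasts (34.5%). It held for 4 of 7 in unnamed GABAergic nuclei (31.7%, with 0.0267% of genes passing the test), 3 of 5 in cerebellar granule neurons (36.0%) and 3 of 5 in astrocytes (37.0%). It held for 1 of 5 in OPC (35.6%) and 1 of 5 in oligodendrocytes (34.5%, with 0.0872% of genes passing the test). With so few members a share above these backgrounds is no result about them. In OPC, Sox6 was at 2332 and 2284 CPM in WT and 2320 and 2295 CPM in cKO libraries, which overlap (background 0.0657%). In astrocytes, Npas3 was at 5002 and 5076 CPM against 5089 and 5062 CPM, also overlapping (background 0.123%). In spiny neurons, Adarb2 was at 515 and 527 CPM in WT and 348 and 244 CPM in cKO libraries, with an adjusted p by edgeR of 0.423 (background 0.0170%). In cerebellar granule neurons, Adarb2 was at 333 and 276 CPM in WT and 470 and 579 CPM in cKO libraries, with an adjusted p by edgeR of 0.261 (background 0%).

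Related genes were read from 7 lists. In interneurons, 3 of 12 transcription factors of MGE-derived interneurons, 4 of 8 of CGE-derived interneurons, 1 of 12 interneuron peptides and calcium-binding proteins, 0 of 10 peptide receptors, 5 of 8 ErbB and neuregulin genes, 2 of 2 RNA-editing enzymes and 4 of 6 partners and relatives of Npas3 and Zfp536 had enough counts. None of them passed the edgeR test. In all GABAergic nuclei 7, 7, 9, 5, 6, 2 and 6 members of these lists were tested, in the same order, and 0 passed. Their median log2 changes there were 0.00, -0.07, 0.15, 0.26, 0.04, 0.15 and -0.02.

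Named members of these lists gave the following values. Maf, a transcription factor of MGE interneurons, was at 76.7 and 93.1 CPM in WT and 72.1 and 50.3 CPM in cKO GABAergic nuclei. Among interneurons Maf was at 522 and 435 CPM in WT and 631 and 513 CPM in cKO libraries, a log2 change of 0.23 ± 0.24 (SE). Satb1, which acts downstream of Lhx6, was at 193 and 259 CPM in WT and 264 and 176 CPM in cKO interneurons. Prox1, a regulator of CGE interneurons, was at 94.1 and 61.7 CPM in WT and 46.4 and 232 CPM in cKO interneurons, with cKO replicate 2 far above the rest. Reln, the secreted protein reelin, was at 1104 and 1342 CPM in WT and 779 and 837 CPM in cKO interneurons, with a log2 change of -0.65 ± 0.22 (SE) and an adjusted p by edgeR of 0.996. In CGE interneurons Reln was at 2018 and 2510 CPM in WT and 1112 and 1051 CPM in cKO libraries, with an adjusted p by edgeR of 0.997. Reln was left out of the clustering, as the members were. Egfr and Nrg1, of the ErbB family and its ligands, had changes of 0.35 ± 0.28 (SE) and -0.13 ± 0.21 (SE) among interneurons.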

How the data were processed

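The authors deposited UMI counts per gene and barcode for single-nucleus 3′ libraries (2 WT, 2 cKO). Cell Ranger 4.0.0, Seurat 3.2.3 and the build GRCm38 are named in the submitters' processing notes. Members and lists were chosen with earlier results of these data known. The filter was 500 UMIs or more and a mitochondrial share under 5%. Scrublet's own threshold called almost no doublets (1 in WT replicate 2), so the highest scores were removed instead, at 0.8% per 1000 barcodes. Clusters were built with scanpy 1.11.5 (2000 variable genes, 30 components, 15 neighbours, Leiden resolution 1) without the members, Reln, Grin3a, Grik1, Kcnmb2, Ago2, sex-linked and mitochondrial genes, and named by at least 3 detected markers. The rule for GABAergic sub-clusters (at least 40% of nuclei with a Gad1, Gad2 or Slc32a1 UMI, and those genes at least 2-fold over Slc17a6 and Slc17a7) was set after seeing the data. Counts were summed per class and library (minimum 20 nuclei, also 10 as an addition) and tested with edgeR 4.0.16 quasi-likelihood (filterByExpr, TMM, Benjamini-Hochberg adjustment at 0.05), two-sided. The interaction had the library as a block. Class shares used nuclei counts with library totals. Fits were tested on simulated data. Named genes were the members, the 3 genes most like each (at least 200 UMIs) and up to 3 per list with the smallest p. Same-numbered libraries deviated with correlations of -0.0317 (GABAergic) and 0.0653 (glutamatergic), so numbers were not taken as pairs. DESeq2 1.42.0, filters, doublets, denominators and left-out libraries were alternatives.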

Additional observations from a re-analysis of the deposited data

Results flagged for a closer look

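For Npas3 and Adarb2 the genotype effect in GABAergic nuclei differed from that in glutamatergic forebrain nuclei by the interaction test, a contrast that was in view when the genes were selected, so the values are a description and no independent evidence. For Npas3 the difference was -0.90 in log2, from a change of -0.34 in GABAergic and 0.57 in glutamatergic nuclei. For Adarb2 it was -0.66, from -0.32 and 0.36. Neither passed without the interneurons or with a replicate block in place of the library block, and the cause was not tested.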

How the results depend on the processing

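Counts of genes past the threshold depended on the settings. For GABAergic nuclei the count of 0 became 4 with DESeq2, 74 with no filter on low counts, 1 with doublets kept, 2 without interneurons and 31 to 225 with 1 library left out (31 and 46 without the first and the second WT library, 63 and 225 without the first and the second cKO library). For interneurons it became 2 with no filter and 0 to 14 with 1 library left out. With 1 library in an arm, that library is assumed to vary like the others. The 8 genes of the interaction became 1 without interneurons and 0 (WT replicate 2) to 72 (cKO replicate 2) with that library left out. With the replicate block, GABAergic nuclei gave 2 genes and interneurons 0, and the share of interneurons changed by -0.54. In the interaction the replicate block took the place of the library block, so both classes were no longer compared within a library. That other model gave 0 genes, without calls of Npas3 and Adarb2. With fewer than 3 pairs, the replicate numbers are not shown to pair libraries.

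With 1 library left out, the share changed by -1.25 to -0.056 for MGE interneurons, -0.74 to -0.32 for CGE interneurons and -1.04 to -0.14 for both, and the mix part was larger for 4 to 8 members. Taking all GABAergic nuclei as the total, in a fit of the GABAergic classes only, gave -0.87 for both together, past the threshold. With 1 library left out, changes in GABAergic nuclei ranged from -1.05 to 0.33 for Lhx6, -0.75 to 0.023 for Sox6 (adjusted p 0.011 by edgeR without cKO replicate 1), -0.83 to 0.41 for Sst, -0.81 to 0.27 for Npy, -0.71 to 0.25 for Pvalb and -0.60 (without WT replicate 1, adjusted p 0.014 by edgeR) to -0.058 (without WT replicate 2) for Erbb4. In interneurons they ranged from -0.079 to 0.48 for Lhx6, -1.61 to 0.88 for Sst, -0.43 to 0.040 for Npy, -0.90 to 0.53 for Vip, -0.00052 to 0.50 for Erbb4, -0.38 to 0.76 for Adarb2, -0.10 to 0.13 for Zfp536 and -0.44 to 0.47 for Npas3. In glutamatergic nuclei Erbb4 ranged from -0.0041 to 0.25, and Npas3 passed without cKO replicate 2 (0.69, adjusted p 0.041 by edgeR). Interaction values ranged from -2.71 to 3.07 for Lhx6, -1.27 to 0.071 for Sst, -4.30 to 3.52 for Vip and -0.57 to 2.49 for Pvalb. By edgeR the interaction passed for Sox6 (-1.25, adjusted p 0.0028) and Zfp536 (-1.14, adjusted p 7.24e-09) without cKO replicate 1, and for Erbb4 (-0.50, adjusted p 0.043) without cKO replicate 2.

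Other reversals were uncalled values too. Without interneurons, GABAergic changes were 0.11 for Lhx6, 0.39 for Sox6, 0.58 for Sst and 1.15 for Npy, and the interaction was 0.32 for Sst and 0.81 for Npy. With no filter, Zfp536 was at -0.067 and Npas3 at -0.015 in interneurons, and with a mitochondrial maximum of 2%, Sst was at 0.20 and Npy at 0.070. MGE interneurons alone gave 0.34 for Npy and -0.40 for Npas3, and CGE interneurons alone -0.22 for Zfp536. At 2000 in place of 1000 UMIs the cKO minus WT share of interneurons with a UMI turned from -6.84 to 2.44 points for Zfp536, 0.821 to -7.37 for Sox6, -0.751 to 8.73 for Adarb2, 2 to -2.81 for Vip and 3.04 to -0.984 for Npas3. Each of these shares comes from a single random draw, and draws at the same depth differed. The cause was not tested. Few interneuron nuclei (32 in cKO replicate 2) limit every level in these classes.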
